A study of Arabidopsis thaliana with 6 samples.

Results

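The mitochondrial genome of Arabidopsis thaliana carries 2 copies of atp6, listed as atp6.1 and atp6.2, and both were followed through ribosome footprints and RNA of mitochondria from wild-type and rps10 mutant plants. They were taken by name from the deposited gene levels, where they are 2 of 24 mitochondrial genes and 2 of the 6 genes of complex V, the ATP synthase. The plants were of ecotype Col-0 and aged 9 to 10 weeks, and mitochondria came from their youngest leaves. Wild type was compared with P2 and P3, which are phenotypes of a heterozygous mutant of RPS10 (genotype Rps10 +/-), a nuclear gene whose protein is part of the small mitoribosomal subunit. Mutant seedlings were selected on kanamycin at 50 mg per litre and wild-type seedlings were raised without it. Leaf material per isolation was about 15 g for the mutant and about 30 g for wild type. Every lysate, wild type included, contained chloramphenicol at 100 µg/ml, which holds mitochondrial ribosomes in place. Each kind of plant had 1 footprint library and 1 RNA library, and each library pooled 15 mitochondrial preparations. The level of RPS10 itself was not analysed here, since the gene values cover mitochondrial genes. With 1 library per group no difference below has a replicate check, and no test was made.

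The protein encoded by atp6 is subunit 6, also called subunit a, of the membrane sector of ATP synthase. It lies beside the ring of c subunits, which are encoded by atp9, and together they form the path through which protons cross the inner membrane while ATP is made in the soluble head. Plant atp6 proteins carry an N-terminal extension that is removed after synthesis, and in Arabidopsis the copies differ in this extension and share the part that remains. Reads from the shared part can therefore match both copies equally well, and nothing in the labels or file headers says how the authors assigned such reads. The TAIR10.1 gene table has 2 entries named atp6, which it does not number. Each has a trnS(TGA) entry as a neighbour, after the first entry and before the second, so a serine tRNA gene is next to both. Their nearest named protein genes are nad9 and atp1 for the first, and atp8 and atp9 for the second.

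Gene levels were deposited as TPM, a transcript level per length that sums to 1000000 over the 24 genes of a library. A level is thus a part of these 24 genes. A lower amount of 1 gene cannot be told apart from a higher amount of others. A change shared by all 24, in amount per mitochondrion or in number of mitochondria or cells, would not show. Between 1971931 and 3126478 RNA reads lay on mitochondrial coding sequences (CDS), against 416254 footprint reads in wild type and, for P2 and P3, 80146 and 48653. The files hold no read number for either copy, and the depth behind a copy's value is therefore unknown. Reads from the plastid genome, outside its tRNAs and rRNAs, were 1.21% to 5.32% of the RNA libraries and those from the nuclear genome 0.428% to 4.51%, and both were highest in wild type. In footprints the libraries stood further apart, with nuclear genome reads at 14.0%, 1.90% and 1.77% for wild type, P2 and P3 and mitochondrial tRNA and rRNA at 56.7%, 88.7% and 86.6%. The CDS share of mitochondrial genome footprints, tRNA and rRNA left out, was 62.6%, 17.3% and 14.9%. Whether these differences or the different amounts of leaf had a part in the values below was not tested.

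In RNA, atp6.1 was far more abundant than atp6.2 in all 3 kinds of plants, and the gap was narrower in the mutant. The RNA level of atp6.1 was 79439 TPM in wild type and, for P2 and P3, 61822 and 55462. That of atp6.2 was 8583 TPM in wild type, against 10892 in P2 and 11578 in P3. Wild type thus had the highest level of atp6.1 and the lowest of atp6.2, and P2 lay between wild type and P3 for both. Among the 24 genes atp6.1 ranked 3rd in wild type, 4th in P2 and 5th in P3, and atp6.2 ranked 16th, 18th and 18th. The neighbours of atp6.1 in this order were atp1 and atp8 in wild type, nad9 and cox1 in P2, and cox1 and rpl16 in P3. Those of atp6.2 were rpl16 and matR in wild type, rps4 and tatC in P2, and matR and tatC in P3. With no spread between replicates, no pair of neighbouring levels can be said to differ.

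The log2 ratio to wild type in RNA was -0.36 in P2 and -0.52 in P3 for atp6.1, and 0.34 and 0.43 for atp6.2. Neither copy was 1.5-fold apart from wild type (0.58 on the log2 scale), a rule of size by which 58.3% of the 24 genes were higher and 8.33% lower in each phenotype. The P2 and P3 ratios share the wild-type library, so they are not independent of each other. Both copies were below the median gene, whose ratio was 0.84 (P2) and 0.78 (P3). When the median gene was set to wild type, atp6.1 stood at -1.20 in P2 and -1.30 in P3, and atp6.2 turned to -0.49 and -0.35. With TPM scaled by the share of mitochondrial reads on CDS, atp6.1 stood at -0.72 and -0.91, and atp6.2 at -0.016 and 0.045. The copy atp6.1 thus passed the rule under both scalings, while the direction of atp6.2 in RNA depends on the scaling. Summed over both copies, the RNA level was 88022 TPM in wild type and, for P2 and P3, 72714 and 67041, or log2 ratios of -0.28 and -0.39. Moving a shared read from 1 copy to the other would change this sum only through the difference in length between the copies, whereas reads left out because they match both would change it further.

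In footprints the gap between the copies was narrower still, and on the TPM scale most of the shift lay in atp6.2. The footprint level of atp6.2 was 7876 TPM in wild type, against 26307 in P2 and 29667 in P3. That of atp6.1 was 58296 TPM in wild type and, for P2 and P3, 53707 and 45837. Both mutant libraries were thus over 3 times the wild-type level for atp6.2 and within 1.3-fold of it for atp6.1. The log2 ratio of atp6.2 was 1.74 in P2 (3.34-fold) and 1.91 in P3 (3.77-fold), and that of atp6.1 was -0.12 and -0.35. By the 1.5-fold rule 1 of the 2 copies was higher and 0 lower, in a setting where 58.3% of the 24 genes were higher and 29.2% lower in each phenotype. The atp6.2 ratios ranked 10th and 11th of 24, close to the median gene at 1.30 in P2 and 1.32 in P3, so being higher on the TPM scale did not set atp6.2 apart from most mitochondrial genes. With the median gene set to wild type the atp6.2 ratios were 0.42 and 0.583, under the rule, though in P3 only just (threshold 0.585). With CDS-share scaling they were -0.11 and -0.16. Under the same scalings the atp6.1 ratios were -1.44 and -1.68, and -1.97 and -2.42. The footprint level summed over both copies was 66172 TPM in wild type, against 80015 in P2 and 75504 in P3, or log2 ratios of 0.27 and 0.19, and it was lower than wild type under both of those scalings.

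**Figure D1:**
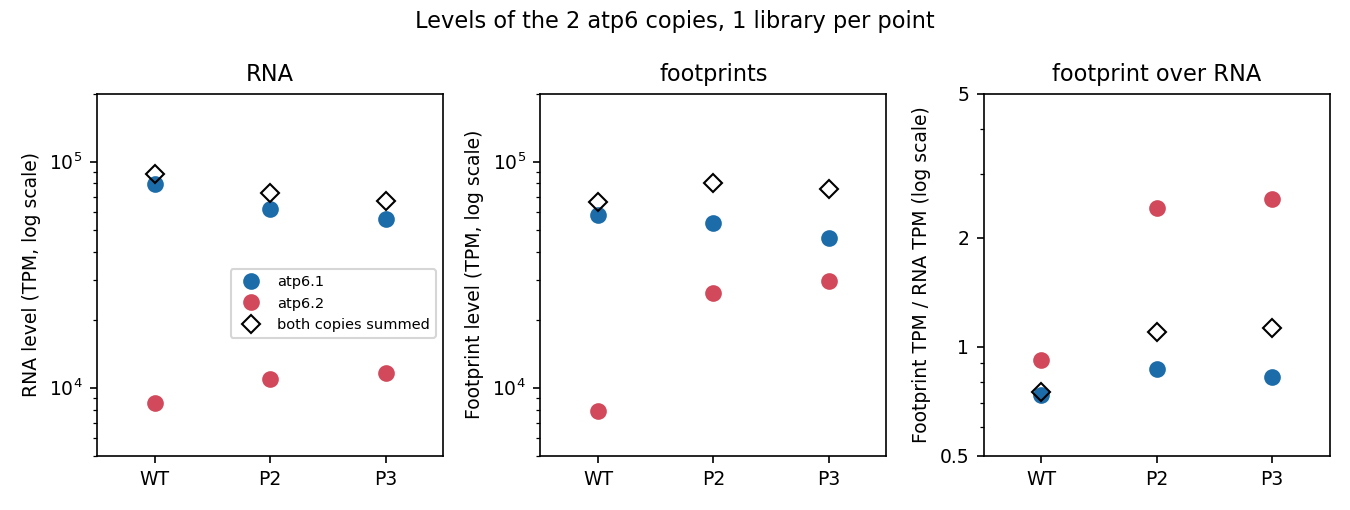
Levels of atp6.1 (blue), atp6.2 (red) and their sum (open diamonds) in RNA and footprints, in TPM on log axes, and the footprint level over the RNA level, also on a log axis, for wild type, P2 and P3. Each point is 1 library or the ratio of 2 libraries, with no error bar because there were no replicates; atp6.2 moves up from 7876 to 29667 TPM in footprints while atp6.1 stays between 45837 and 58296.

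Footprint level over RNA level of the same kind of plant, a relative measure of how many footprints a transcript carries, differed more from wild type for atp6.2 than for atp6.1 on the TPM scale, and less with CDS-share scaling. It was 0.918 in wild type and, for P2 and P3, 2.42 and 2.56 for atp6.2. It was 0.734 in wild type, against 0.869 in P2 and 0.826 in P3 for atp6.1. The atp6.2 value was above 2 in both mutant phenotypes and the atp6.1 value was below 1 in all 3 kinds of plants. In this measure atp6.2 ranked 2nd of 24 genes in P2, after cox3, and 3rd in P3, against 10th in wild type, while atp6.1 ranked 14th, 13th and 15th. The log2 ratio of this measure to wild type was 1.40 in P2 and 1.48 in P3 for atp6.2, and 0.24 and 0.17 for atp6.1. By the rule 1 of the 2 copies was 1.5-fold higher, against 37.5% of the 24 genes in P2 and 45.8% in P3. By the same rule 0 of the 2 were lower, against 25% and 29.2%. The atp6.2 ratio ranked 7th of 24 in both comparisons, above a median gene at 0.23 and 0.33. With CDS-share scaling both copies were lower than wild type, with log2 ratios of -0.095 and -0.21 for atp6.2 and -1.25 and -1.52 for atp6.1. Taken as a sum, the copies had a footprint level over RNA level of 0.752 in wild type and, for P2 and P3, 1.10 and 1.13. This gave log2 ratios of 0.55 and 0.58, under the 1.5-fold rule, though in P3 only just (1.498-fold). These were 0.068 and 0.034 with the median gene set to wild type, and -0.94 and -1.10 with CDS-share scaling.

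**Figure D2:**
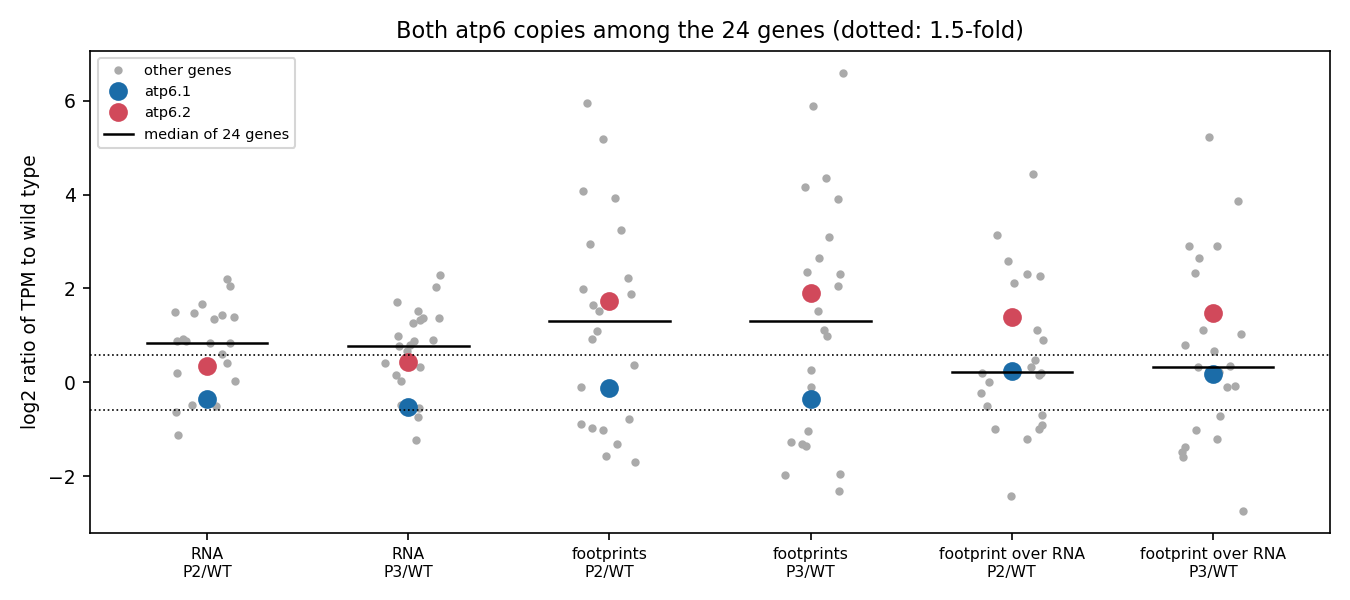
Log2 ratios of TPM to wild type for RNA, footprints and footprint over RNA in P2 and P3, with atp6.1 in blue, atp6.2 in red, the other 22 genes in grey (spread sideways only to separate points), the median of all 24 genes as a black line and 1.5-fold as dotted lines. The red point lies above the blue one in all 6 columns, and in footprints it lies near the median gene (1.74 against 1.30 in P2).

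The ratio of the copies within a library does not depend on how libraries are scaled to each other. In RNA, atp6.1 was 9.26-fold above atp6.2 in wild type, against 5.68-fold in P2 and 4.79-fold in P3. In footprints it was 7.40-fold above in wild type and, for P2 and P3, 2.04-fold and 1.55-fold. The share of atp6.2 in the summed level of both was accordingly 9.75%, 15.0% and 17.3% in RNA, and 11.9%, 32.9% and 39.3% in footprints. In wild type the footprint share of atp6.2 lay close to its RNA share, and in each mutant library it was over 2 times as large.

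The ratio of atp6.2 to atp6.1 was 1.63-fold higher in P2 than in wild type and 1.93-fold higher in P3 for RNA, and 3.63-fold and 4.79-fold higher for footprints. After division by RNA it was 2.22-fold and 2.48-fold higher. Such shifts between genes were common in these libraries. Among the 276 possible pairs of the 24 genes, which are not independent of each other, 67.4% shifted at least 1.5-fold in RNA in each phenotype. In footprints 86.6% of pairs did so in P2 and 89.9% in P3, and for footprint over RNA 79.7% and 83.3%. In footprints 59.4% of all pairs in P2 and 55.8% in P3 shifted at least as much as the atp6 pair. In RNA 59.4% and 47.1% did, and for footprint over RNA 61.6% and 65.2%. Between the 15 pairs of complex V genes, 5 shifted at least as much as the atp6 pair in footprints in each phenotype, the atp6 pair included. These 5 are the pairs that contain atp6.2, so they give no separate background for its shift. In RNA the counts were 6 in P2 and 4 in P3, and for footprint over RNA 7 and 9.

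P3 was set beside P2 directly, since these libraries share no wild-type value. For atp6.1 the log2 ratio of P3 over P2 was -0.16 in RNA and -0.23 in footprints, and for atp6.2 it was 0.088 and 0.17. Neither copy passed 1.5-fold. In RNA 0% of the 24 genes did so in either direction, and in footprints 20.8% were higher and 8.33% lower. For footprint over RNA the ratios were -0.072 and 0.085, where 12.5% of genes were higher and 4.17% lower. With CDS-share scaling the atp6.2 ratios turned to -0.050 in footprints and -0.11 in footprint over RNA. The ratio of atp6.2 to atp6.1 was 1.18-fold higher in P3 than in P2 in RNA, and 7.97% of the 276 pairs shifted at least as much, with 0% past 1.5-fold. In footprints it was 1.32-fold higher, where 33% of pairs passed 1.5-fold and 54.3% shifted at least as much. For footprint over RNA it was 1.12-fold higher, where 31.9% of pairs passed 1.5-fold and 81.2% shifted at least as much. The RNA shift between the copies was thus small in size and among the larger ones of an RNA comparison whose median absolute log2 difference over the 24 genes was 0.052.

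Reads that match several positions of the mitochondrial genome were counted per library and not per gene. In RNA they made up 18.2% of the reads on the mitochondrial genome in wild type (18.17 to 18.26 as a 95% Wilson interval), against 12.3% for P2 (12.30 to 12.35) and 13.1% for P3 (13.07 to 13.13). In footprints they made up 10.6% in wild type (10.56 to 10.71), against 11.5% for P2 (11.44 to 11.63) and 11.5% for P3 (11.39 to 11.61). As a part of mitochondrial genome reads the class was thus smaller in the mutant than in wild type in RNA and slightly larger in footprints. The direction in footprints depends on this total. Of all reads after trimming and filtering, the class made up 0.914% of wild-type footprints, 0.352% in P2 and 0.315% in P3. The atp6.2 share was larger in the mutant in both RNA and footprints. The intervals above hold no spread between plants or libraries. They also treat reads as independent, while reads are copies made by amplification, so even the counting error may be wider than shown. The class takes in reads from every repeated sequence of the genome, and how much of it came from atp6 is unknown. Whether the division of such reads had a part in the copy ratios was not tested.

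**Figure D3:**
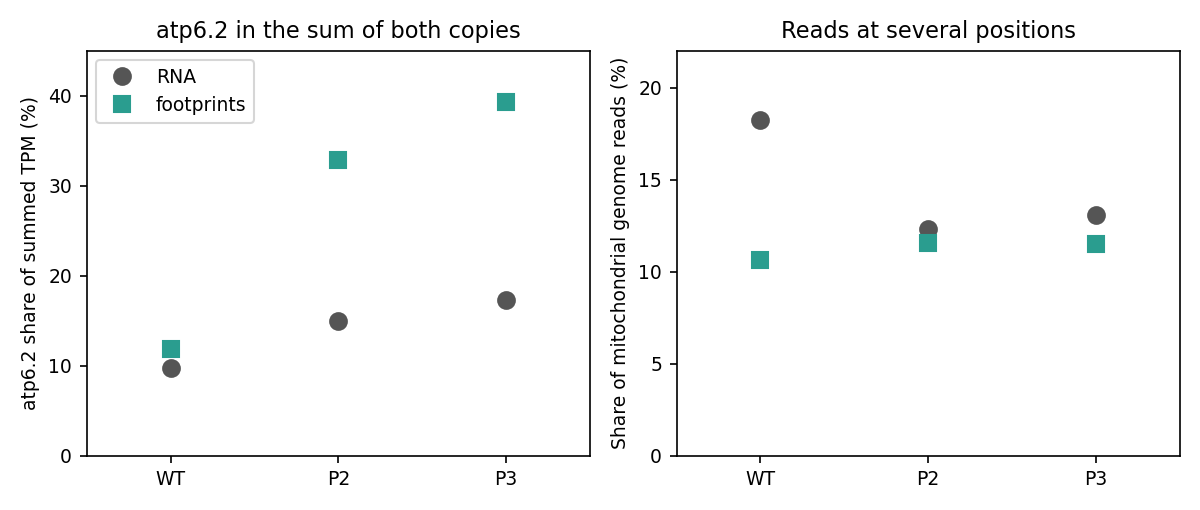
Left, the share of atp6.2 in the summed TPM of both copies in percent, and right, the share of mitochondrial genome reads that match several positions in percent, for RNA (grey circles) and footprints (green squares) of wild type, P2 and P3, 1 library per point. The atp6.2 share goes from 11.9% to 39.3% in footprints, while the right panel stays between 10.6% and 11.5% for footprints and goes from 18.2% to 12.3% and 13.1% for RNA.

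Footprints of a translating ribosome step by codon, so 1 of the 3 reading frames (frame 0) holds most of them. Both copies had their largest share in frame 0 in all 3 footprint libraries. This was common to most of the 24 genes, the copies included: 23 for wild type, 22 for P2 and 21 for P3. For atp6.1 frame 0 held 59.6% of the footprints in wild type, against 47.8% in P2 and 49.6% in P3. For atp6.2 it held 48.3%, 41.2% and 47.1%. All values lay above the 33.3% of an even spread, and wild type was highest for both copies. In wild type atp6.2 ranked 22nd of 24 genes in frame 0 share, below the 55.5% to 63.6% of the other 4 complex V genes, and atp6.1 ranked 11th. In P2 and P3 atp6.2 lay inside the range of those 4 genes, which was 40.7% to 55.2% and 35.1% to 59.3%.

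The copies differed by 11.4 percentage points in frame 0 in wild type, and the difference lay in frame 1, which held 18.0% for atp6.1 and 29.4% for atp6.2, while frame 2 held 22.3% for each. Of the 276 pairs of genes, 25% differed at least as much in frame 0. In P2 the copies were 6.56 points apart, and 42.8% of pairs differed at least as much. In P3 they were 2.47 points apart, against 83.3% of pairs. In both phenotypes 24 of 24 genes had less in frame 0 than in wild type, with a median difference of -12.1 points in P2 and -11.3 in P3. The difference was -11.9 and -10.1 points for atp6.1, close to that median. For atp6.2 it was -7.07 points in P2 and -1.18 in P3, the latter the smallest of the 24 genes. By rank, atp6.2 went from 22nd in wild type to 19th in P2 and 10th in P3, and atp6.1 was 9th in both. The number of footprints behind each frame share was not given, and no interval was set on these differences. The small ones, such as -1.18 points for atp6.2 and 2.47 points between the copies in P3, may lie within counting error. So may the change in rank of atp6.2 from 19th in P2 to 10th in P3.

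**Figure D4:**
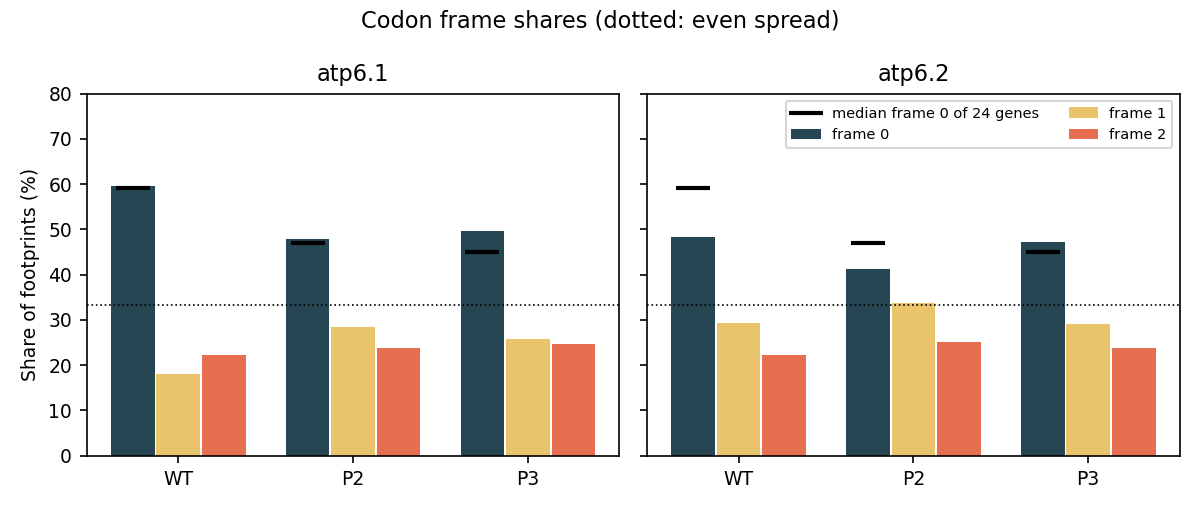
Shares of footprints in codon frames 0, 1 and 2 in percent for atp6.1 and atp6.2 in wild type, P2 and P3, with the median frame 0 share of 24 genes as a black dash and an even spread as a dotted line, 1 library per bar. Frame 0 of atp6.1 lies at or above the median, going from 59.6% to 47.8% and 49.6%. That of atp6.2 lies below the median at 48.3% in wild type and 41.2% in P2, and above it at 47.1% in P3.

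Among the ATP synthase genes, the copies took a larger part of complex V footprints in the mutant, and atp6.2 was the 1 member of 6 above wild type on the TPM scale, which it was not with CDS-share scaling. Of the summed complex V footprint TPM, atp6.1 held 9.62% in wild type and, for P2 and P3, 17.3% and 19.0%, and atp6.2 held 1.30%, 8.50% and 12.3%. Together the copies held 10.9%, 25.8% and 31.3% there, against 13.2%, 16.4% and 14.9% of complex V RNA. The other 4 genes, atp1 for the alpha subunit of the head, atp4 and atp8 for subunits of the membrane sector and its stalk, and atp9 for the c subunit, were all 1.5-fold lower in footprints in both phenotypes, against 29.2% of the 24 genes. Their log2 ratios ran from -1.69 (atp4) to -0.97 (atp8) in P2 and from -2.32 (atp4) to -1.27 (atp1) in P3. In RNA 2 of these 4 were lower in each phenotype, against 8.33% of the 24 genes, with ratios from -1.12 to -0.49 in P2 and from -1.23 to -0.48 in P3. The 6 genes together had a median footprint ratio of -0.99 in P2 and -1.29 in P3, beside 1.30 and 1.32 over all 24 genes. For footprint over RNA, atp6.2 (1.40 and 1.48) was above the range of the other 4, which ran from -1.20 to 0.15 in P2 and from -1.59 to -0.094 in P3, and atp6.1 (0.24 and 0.17) lay just above it too.

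The pattern of each copy over the 6 libraries was set beside that of every other gene, as the root mean square difference of log2 TPM after each gene's own mean was subtracted. The genes nearest to atp6.1 were atp1 (0.31), cox1 (0.36), for a subunit of cytochrome c oxidase, and atp8 (0.39). Those nearest to atp6.2 were rps7 (0.32), for a ribosomal protein of the small subunit, nad6 (0.39), for a subunit of complex I, and cox3 (0.42), for a subunit of cytochrome c oxidase. The copies themselves were 0.94 apart, so that atp6.2 was the 12th nearest of 23 genes to atp6.1, at the median distance of 0.94, and atp6.1 the 10th nearest to atp6.2. These distances describe 6 unreplicated libraries in which all levels of a library share 1 total.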

How the data were processed

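Footprint and RNA libraries of 3 kinds of plants were assigned to groups from their titles, 1 library per group. STAR and featureCounts were used, per the submitters' processing notes. No version, setting, genome build or rule for reads at several positions is given in the sources used. The authors deposited gene levels as TPM, which cover 24 mitochondrial genes. Frame shares were deposited as a fraction of footprints per gene, and reads per class as whole counts, per the file headers.

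From these, log2 ratios (no pseudocount, since no value was 0), footprint TPM over RNA TPM, copy ratios and Wilson intervals (95%) were computed with Python 3.11.15, pandas 2.3.3 and scipy 1.17.1. Only the log2 ratios of footprints to wild type were checked on simulated data, which held no reads shared between genes. Genes 1.5-fold apart were counted. Named genes are both copies, the other complex V genes, neighbours in level and the 3 nearest in pattern. The copies, the lists and the rules were chosen with earlier results of these data known. Alternatives were 2 scalings, the most abundant gene left out, pseudocounts of 1 and 10, length weighting, a 2-fold rule and a filter at 1000 TPM. No sequence of either copy is shown, as none was in the files used here.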

Additional observations from a re-analysis of the deposited data

How the results depend on the processing

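No paired analysis was possible because each group has 1 library. The ratio of atp6.2 to atp6.1 is the same under every scaling of libraries. Pseudocounts of 1 and 10 moved no value across 1.5-fold or 0, and frame shares were used per whole copy, with no exon-level alternative run. Ratios below are log2, P2 then P3 over wild type, and beyond what each scaling does by its construction the cause of a difference was not tested. With median-of-ratios scaling, atp6.1 RNA was -1.20 and -1.30, summed RNA -1.11 and -1.17, atp6.1 footprints -1.44 and -1.68, atp6.2 footprints 0.42 and 0.58, summed footprints turned to -1.05 and -1.14, atp6.2 RNA to -0.49 and -0.35, and atp6.1 footprint over RNA to -0.24 and -0.38. With CDS-share scaling, atp6.1 RNA was -0.72 and -0.91, summed RNA -0.63 and -0.78, and atp6.1 footprints -1.97 and -2.42. Under it atp6.2 RNA turned to -0.016 in P2 alone, atp6.2 footprints to -0.11 and -0.16, and summed footprints to -1.58 and -1.88. Footprint over RNA turned to -1.25 and -1.52 for atp6.1, -0.095 and -0.21 for atp6.2, and -0.94 and -1.10 for the sum. The most abundant gene by mean over the 3 kinds of plants was atp9 in RNA and cox3 in footprints. Wild-type footprints had cox3 at 65924 TPM and atp9, which stayed in, at 248628 TPM. With the most abundant gene left out, atp6.1 RNA was -0.59 and -0.70, and atp6.1 footprints turned to 0.086 in P2 alone. Footprint over RNA of atp6.1 in P2 was 0.68, and that of the sum was 0.98 and 0.97. A different gene was removed from each kind of library, which shifts footprint over RNA by construction. For P3 over P2, CDS-share scaling turned atp6.2 footprints to -0.050, and atp6.2 and summed footprint over RNA to -0.11 and -0.16. The sum there was also -0.033 with median-of-ratios scaling and -0.0085 without the most abundant gene.

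Weighting the copies by the lengths of both atp6 entries (1158 and 1050 bases in the TAIR10.1 gene table, which does not say which copy is which) gave an atp6.2 share, with atp6.1 as the longer, of 8.92%, 13.8% and 15.9% in RNA and 10.9%, 30.8% and 37.0% in footprints for wild type, P2 and P3. With atp6.2 as the longer it gave 10.6%, 16.3% and 18.7%, and 13.0%, 35.1% and 41.7%, and footprint over RNA of the sum reached 0.61 in P3. The lengths that the authors used for TPM are not known here. If they differed from those of these entries, the atp6.2 share of reads could lie outside these values. As a part of all reads after trimming and filtering, reads at several positions were 13.8%, 9.78% and 10.6% in RNA and 0.914%, 0.352% and 0.315% in footprints. Counts over 24 genes at 2-fold were 8 higher and 1 lower in RNA in each phenotype, 4 lower in P2 footprints and 2 lower in P2 footprint over RNA. P3 over P2 then gave 0 genes in either direction for footprints and for footprint over RNA. The other counts, and all counts without genes under 1000 TPM, stayed within 1.5-fold. Footprint reads on all CDS together were fewest in P3 (48653), and the number behind each copy is unknown.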

Other observations

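The share of mitochondrial genome reads with 1 to 5 mismatches, a class in which reads of near-identical copies can also fall, was 8.93% in wild-type RNA, 17.2% in P2 RNA and 6.27% in P3 RNA. In footprints it was 23.6% in wild type, against 17.5% in P2 and 20.0% in P3. P2 had the largest share of this class among the RNA libraries. The atp6.2 share of RNA was 15.0% in P2 and 17.3% in P3. How the reads with mismatches were divided between the copies is unknown, and whether they had a part in the copy shares was not tested.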
